A study of Mus musculus with 17 samples.

Results

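Cohesin is the ring-shaped protein complex that holds sister chromatids together. Each ring joins 2 SMC proteins to a kleisin, and a STAG protein binds the kleisin. Germ cells entering meiosis add meiotic versions of these parts (the kleisins REC8 and RAD21L, the STAG protein STAG3 and the SMC protein SMC1B), from which the axes of meiotic chromosomes are built, and shugoshins protect cohesin at centromeres from the protease separase. The genes described here are 10 named subunits and regulators, Rec8, Rad21l, Rad21, Stag3, Stag1, Stag2, Smc1b, Smc3, Sgol1 and Sgol2a. They were chosen by name and not by a rule on their values, but with earlier results of these data known. All 10 were found among the 23980 genes listed in each of 2 expression tables, with Sgol2a listed there as Sgol2.

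Poly(A)+ RNA was sequenced from male mouse germ cells and testes on the C57BL/6J background, to compare mutants with reduced PIWI-interacting RNAs and mutants with reduced DNA methylation of retrotransposons. Spermatocytes in leptotene and zygotene (L/Z), the opening steps of meiotic prophase, were sorted at 3 to 4 weeks of age from wild type (WT), Pld6 knockout (KO) and Dnmt3l KO mice (2 libraries each). Whole newborn (P0) testes came from WT (2 libraries), Pld6 KO (4), Dnmt3l KO (2) and mice lacking both genes (double knockout, DKO, 3). PLD6 sits on mitochondria and takes part in producing PIWI-interacting RNAs, while DNMT3L is a cofactor of the DNA methyltransferases that act in fetal male germ cells. Both are constitutive deletions, in lines backcrossed to C57BL/6J, and germ cells of either mutant die in meiotic prophase, so the L/Z cells are those that were still there to be sorted. At P0 the germ cells have not entered meiosis and are a minority among somatic cells. In such bulk samples, fewer cells of a type and less RNA per cell cannot be told apart.

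Total estimated counts ran from 5194238 to 14578341 per library at L/Z and from 9900346 to 23498968 at P0. Pld6 had 344 and 352 counts in WT L/Z libraries and 0 in both Pld6 KO libraries, and 40 to 57 at P0 in WT against at most 2 in Pld6 KO and 0 in DKO. Dnmt3l had 11 and 19 counts in WT and 0 in both Dnmt3l KO libraries at L/Z, and 53 to 72 at P0 in WT against at most 3 in Dnmt3l KO and DKO. The 10 L/Z spermatocyte markers (Sycp1, Sycp3, Hormad1, Dmc1 and others) were all detected in the sorted cells, with a summed FPKM (fragments relative to the length of the transcript and the size of the library) of 819 to 3504, against 22.1 to 103.0 in P0 testes. The 45S pre-ribosomal RNA gene Rn45s took 8.27% of L/Z counts from replicate 1 of WT and 8.06% from that of Pld6 KO, and at most 0.301% in the other L/Z libraries. At P0, Dnmt3l KO replicate 1 stood apart, with 54.7 FPKM of the pachytene gene Ldhc against at most 1.74 in the other libraries. Pld6 KO replicate 1 stood apart in 2 other late germ cell markers. It had 11.8 FPKM of Prm1 and 6.11 of Tnp1, against at most 0.892 and 1.52 in the other P0 libraries.

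The 250 bases upstream of the annotated start are shown for Rad21l and Smc1b, the 2 members called changed in a mutant below. Methylation of these bases was not examined, and its part in the calls was not tested. The windows differ in how many CpG sites they hold. They are from RefSeq (GRCm38.p6), both on the minus strand, at chr2:151668534-151668783 for Rad21l and chr15:85131958-85132207 for Smc1b, and capitals mark the letters TCCCGC, the core of sites bound by E2F-type factors, searched on both strands.

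Rad21l: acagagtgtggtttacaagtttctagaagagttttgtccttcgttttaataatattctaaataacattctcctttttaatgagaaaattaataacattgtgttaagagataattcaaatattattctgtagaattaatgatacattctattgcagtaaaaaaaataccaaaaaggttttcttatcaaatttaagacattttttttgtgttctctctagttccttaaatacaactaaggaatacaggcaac
Smc1b: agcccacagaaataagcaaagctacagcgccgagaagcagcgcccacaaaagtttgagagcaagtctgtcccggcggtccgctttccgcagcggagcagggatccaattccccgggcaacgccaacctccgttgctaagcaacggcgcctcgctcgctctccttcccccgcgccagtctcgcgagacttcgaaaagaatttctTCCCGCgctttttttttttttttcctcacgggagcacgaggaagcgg

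The Smc1b window held 25 CpG sites at 58.0% GC and the Rad21l window 1 CpG site at 25.6% GC. The median over 32851 mouse promoter windows of the same length was 6 CpG sites. TCCCGC occurred once in the Smc1b window and not in that of Rad21l, and was present in 16.9% of all windows. It also occurred in windows of Rec8, Stag1, Smc3 and Sgol2a, which were not called. Of the other letters searched, CCAAT occurred once in the Smc1b window and in 33.8% of all windows. CACGTG, CNCCTCAG (N for any base) and TGACGTCA occurred in neither of the windows shown. Windows were at hand for 8 of the 10 members (not Rad21 and Stag2), and the other meiotic subunits had 26 CpG sites (Stag3) and 10 (Rec8). RefSeq also lists Rad21l transcript models that start further upstream, so the window shown is that of the start in the promoter table.

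In GRCm38, the kleisin genes lie on chromosome 14, 55618002 to 55625395 (Rec8), chromosome 2, 151644366 to 151670622 (Rad21l), and chromosome 15, 51962604 to 51993538 (Rad21). Stag3 lies on chromosome 5, 138272514 to 138312397, Stag1 on chromosome 9, 100597709 to 100958544, and Stag2 on chromosome X, 42149297 to 42277186. Smc1b lies on chromosome 15, 85064689 to 85131957, and Smc3 on chromosome 19, 53600396 to 53645831. The shugoshin genes lie on chromosome 17, 53674786 to 53691331 (Sgol1), and chromosome 1, 57985340 to 58026277 (Sgol2a). All 10 are protein-coding. Sgol2a has a close paralog, so its fragments may be split uncertainly.

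The repertoire itself differed between the stages. FPKM values are compared between genes within a table, and the 2 tables were normalized separately and differ in tissue and read type, so the stages stand side by side with no test. In WT L/Z cells Smc1b had the highest mean level of the 10 genes, 176 ± 49.6 FPKM (SD, n = 2), followed by Stag3 at 141 ± 33.7 FPKM, whose libraries overlapped those of Smc1b. Rad21 (101 ± 13.2 FPKM), Smc3 (78.0 ± 14.7 FPKM) and Stag1 (53.6 ± 2.99 FPKM) came next, each with libraries that did not overlap its neighbours in this order. The other members, Sgol2a, Rad21l, Stag2, Rec8 and Sgol1, had mean levels of 15.7 to 29.0 FPKM and overlapped their neighbours.

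In WT P0 testes the order was led by the mitotic subunits and by Smc3, which meiotic and mitotic cohesin share. Rad21 stood at 141 ± 4.2 FPKM (SD, n = 2), Smc3 at 46.9 ± 2.07, Stag2 at 38.3 ± 4.5 and Stag1 at 28.2 ± 2.26. The shugoshin genes had 13.8 ± 4.17 (Sgol1) and 12.9 ± 4.46 FPKM (Sgol2a), which overlapped. The meiotic subunits were at the bottom, at 6.25 ± 1.09 (Stag3), 3.50 ± 1.88 (Smc1b), 2.54 ± 0.132 (Rad21l) and 1.65 ± 0.0253 FPKM (Rec8), of which Smc1b and Rad21l overlapped. Their depth was low: over the 11 P0 libraries Rec8 had 11 to 75 counts and Rad21l 14 to 95, against 4172 to 11607 for Rad21.

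**Figure D1:**
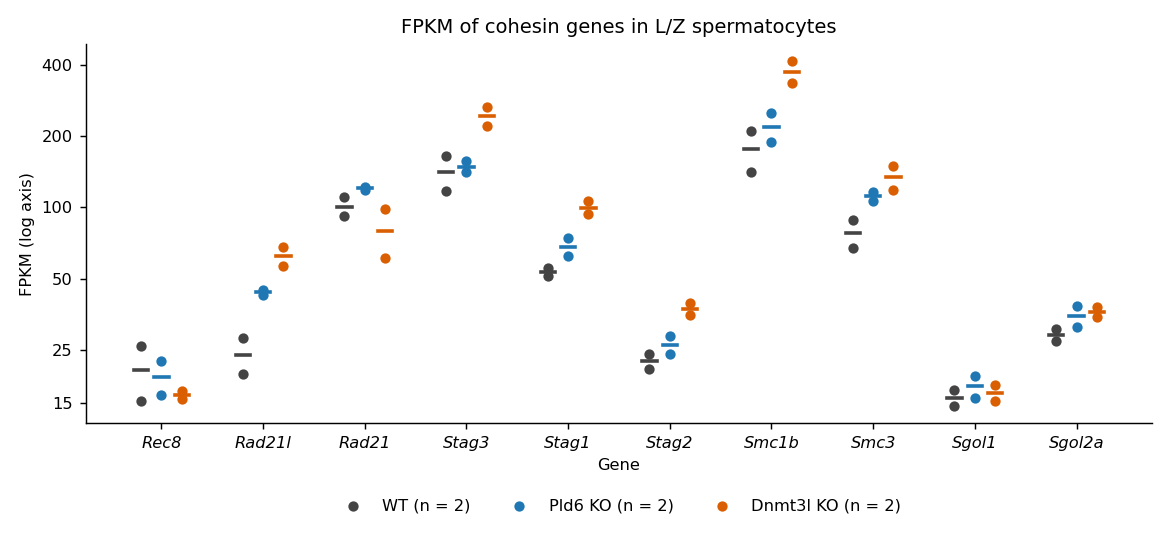
FPKM of the 10 cohesin genes (log axis) in each L/Z library, with points for libraries and bars for group means (n = 2 per group). The Dnmt3l KO points of Rad21l, Stag3, Stag1, Stag2, Smc1b, Smc3 and Sgol2a all lie above the WT points, while those of Rec8, Rad21 and Sgol1 overlap WT.

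The first comparison asked whether loss of Dnmt3l changed these genes in L/Z spermatocytes. Rad21l and Smc1b were higher in Dnmt3l KO than in WT, by 2.61-fold and 2.13-fold, and no member was called lower. A gene was called at a false discovery rate (FDR) under 0.05 over all genes and a fold change over 2, and all 10 members were tested. These 2 of 10 members called higher compare with 3.89% of the 14662 genes tested called higher, and 5.47% called in either direction. The median log2 fold change of the 10 members was 0.75, against -0.04 over all genes tested.

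Among the kleisins, Rad21l, a meiotic kleisin, had 19.7 and 28.0 FPKM in WT and 56.4 and 68.3 in Dnmt3l KO. The lower Dnmt3l KO library was above the higher WT library. On the log2 scale it rose by 1.38 ± 0.24 (SE, FDR 0.0133, edgeR quasi-likelihood test). Rec8, the other meiotic kleisin, had 15.3 and 25.9 FPKM in WT and 15.5 and 16.8 in Dnmt3l KO. Both Dnmt3l KO libraries lay within the range of the WT pair, and the log2 fold change was -0.35 ± 0.29 (FDR 0.470, edgeR). Rad21, the kleisin of dividing cells, had 110.2 and 91.6 FPKM in WT and 61.0 and 98.8 in Dnmt3l KO, which overlapped (log2 fold change -0.33 ± 0.26, FDR 0.438, edgeR).

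All 3 STAG genes had higher FPKM in both Dnmt3l KO libraries than in either WT library, but none was called. Stag3, the meiotic STAG gene, had 117 and 165 FPKM in WT and 266 and 222 in Dnmt3l KO. Its log2 fold change was 0.78 ± 0.25 (FDR 0.0798, edgeR). Stag1 had 51.5 and 55.7 FPKM in WT and 106 and 93.4 in Dnmt3l KO, groups that were far apart relative to their spread. Its log2 fold change of 0.89 ± 0.22 passed the FDR (0.0371, edgeR) but was less than 2-fold. Stag2 had 24.1 and 20.8 FPKM in WT and 39.6 and 35.2 in Dnmt3l KO (log2 fold change 0.73 ± 0.21, FDR 0.0571, edgeR).

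Of the SMC genes, Smc1b, the meiotic partner of SMC3, had 141 and 211 FPKM in WT and 334 and 414 in Dnmt3l KO. The groups did not overlap, and on the log2 scale it rose by 1.09 ± 0.29 (FDR 0.0447, edgeR). Smc3, which is shared by meiotic and mitotic cohesin, had 67.5 and 88.4 FPKM in WT and 119 and 149 in Dnmt3l KO. It too was higher in both mutant libraries, with a log2 fold change of 0.78 ± 0.24 (FDR 0.0729, edgeR). Neither shugoshin gene was called. Sgol1 had 16.9 and 14.5 FPKM in WT and 15.3 and 17.7 in Dnmt3l KO (log2 fold change 0.07 ± 0.23, FDR 0.868, edgeR), which overlapped. Sgol2a had 27.3 and 30.6 FPKM in WT and 34.5 and 38.0 in Dnmt3l KO, which did not overlap (0.31 ± 0.21, FDR 0.352, edgeR).

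In total 7 of the 10 members had both Dnmt3l KO libraries above both WT libraries, where 28.1% of all genes tested did. Other gene groups moved in the same cells, and their part in these results was not tested. Of the 10 L/Z spermatocyte markers, 7 were called higher, with a median log2 fold change of 1.34, and their summed FPKM was 819 and 1618 in WT against 3009 and 3504 in Dnmt3l KO. The 7 Sertoli markers had a median of -1.24, none called, with a summed FPKM of 75.6 to 107 in WT and 20.4 to 62.8 in Dnmt3l KO and no marker at 0 in all libraries. Of the 9 spermatogonia markers, 2 were called lower, with a summed FPKM of 1101 to 1171 in WT and 553 to 959 in Dnmt3l KO. Blood and macrophage markers (4 of 7 tested) had a median of 1.34 and Leydig markers (3 of 6 tested) -2.83, none called. Their summed FPKM in WT was 4.38 to 13.7 and 7.21 to 16.7, against 4.92 to 13.3 and 1.76 to 2.41 in Dnmt3l KO. Late germ cell markers (4 of 8 tested) had a median of -0.97, with 1 called lower. Prospermatogonia, myoid and endothelial markers had medians of 0.11, 0.15 and 0.28, none called.

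The calls depended on whether GC content and transcript length were adjusted for, and on single libraries. With a per-library offset for GC content and transcript length no member was called by edgeR, against 272 genes in all. Rad21l then had a log2 fold change of 0.97 ± 0.21 with FDR 0.0443, just under 2-fold (FDR 1.42e-05 to 0.0978 over its alternatives), and Smc1b 0.53 ± 0.26 (FDR 0.264, the highest over its alternatives, edgeR). Stag3 (49.6% GC, transcript of 4211 bases) kept its value (0.77 ± 0.25), while Stag2 (38.1% GC, 6171 bases) went to 0.09 ± 0.19. The offset took GC content and length together, so the part of each was not tested. Leaving out WT replicate 1, Dnmt3l KO replicate 1 or Dnmt3l KO replicate 2 left 0 members called, and leaving out WT replicate 2 gave 3 (Rad21l, Smc1b and Stag3).

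**Figure D2:**
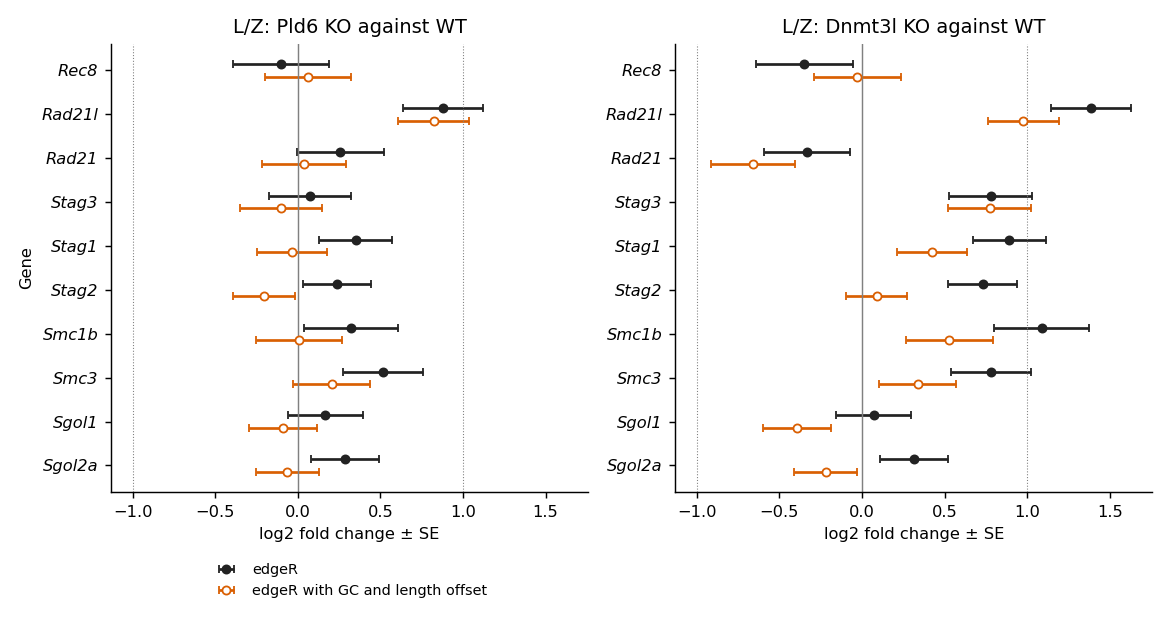
Log2 fold change against WT in L/Z spermatocytes (points, with bars of 1 SE) of the 10 members, from edgeR (filled) and from edgeR with the GC and length offset (open), with dotted lines at 2-fold. In Dnmt3l KO the offset moved Smc1b from 1.09 to 0.53 and Stag2 from 0.73 to 0.09, and left Stag3 near 0.77. In Pld6 KO Rad21l had the largest value with and without it.

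The second comparison was the same for Pld6 KO, which shares its WT libraries with the first. No member was called by edgeR, DESeq2 or limma, where edgeR called 0.225% of genes tested. An unadjusted p under 0.05 was reached by 1345 of all 14662 genes tested and by 1 member, Rad21l. Rad21l had 42.8 and 44.9 FPKM in Pld6 KO against 19.7 and 28.0 in WT. The Pld6 KO libraries were close to each other and above WT, and the log2 fold change was 0.88 ± 0.24 (FDR 0.290, edgeR). With the GC and length offset it was 0.82 ± 0.21 (FDR 0.341, edgeR, 0.0677 to 0.800 over its alternatives). Smc3 had 107 and 116 FPKM and Stag1 62.1 and 74.2 in Pld6 KO, both above their WT pairs. Rec8 (22.4 and 16.2), Stag3 (156 and 141), Stag2 (23.95 and 28.7), Smc1b (189 and 250.4) and Sgol1 (15.7 and 19.5 FPKM) overlapped WT. In all, 5 of 10 members (Rad21l, Rad21, Stag1, Smc3 and Sgol2a) had both Pld6 KO libraries above both WT libraries, against 21.3% of all genes. Rad21 had 118.5 and 122.5 FPKM there and Sgol2a 31.2 and 38.4.

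Between the mutants, no member was called in Dnmt3l KO against Pld6 KO by edgeR, DESeq2 or limma, where edgeR called 0.0477% of genes. An unadjusted p under 0.05 was reached by 2567 of all 14662 genes tested and by 5 members. These were Smc1b (log2 fold change 0.76 ± 0.29), Stag3 (0.71 ± 0.25), Stag1 (0.54 ± 0.22), Stag2 (0.50 ± 0.21) and Rad21 (-0.59 ± 0.26), with FDR from 0.204 to 0.277 (edgeR). Stag3 and Rad21 moved in opposite directions on this scale, and the 2 Dnmt3l KO libraries of each lay outside the Pld6 KO pair.

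Ratios within a library do not depend on how libraries are scaled, but those given here carry no offset for GC content and length. In WT L/Z cells there were 0.179 and 0.306 FPKM of Rad21l for each FPKM of Rad21. The Pld6 KO libraries had ratios of 0.361 and 0.366 and the Dnmt3l KO libraries 0.924 and 0.691, with no overlap between the groups. On the log2 scale Dnmt3l KO was 1.77 above WT, against SDs of 0.55 in WT and 0.30 in Dnmt3l KO. The ratio of Rec8 to Rad21 overlapped in all groups at L/Z, at 0.132 to 0.283. Stag3 exceeded Stag1 and Stag2 together in every L/Z library, at 1.37 to 2.16 times their sum. This ratio differed by 0.05 on the log2 scale between Dnmt3l KO and WT, less than the SD in either group. In the fit with the GC and length offset the 3 genes moved unequally, with log2 fold changes of 0.77 (Stag3), 0.42 (Stag1) and 0.09 (Stag2). Smc1b stood at 6.81 and 10.7 times Smc1a, its mitotic counterpart, in WT. The Pld6 KO libraries stood at 6.18 and 7.33 times and those of Dnmt3l KO at 10.7 and 13.97 times. The Dnmt3l KO and WT ranges overlapped for this ratio.

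**Figure D3:**
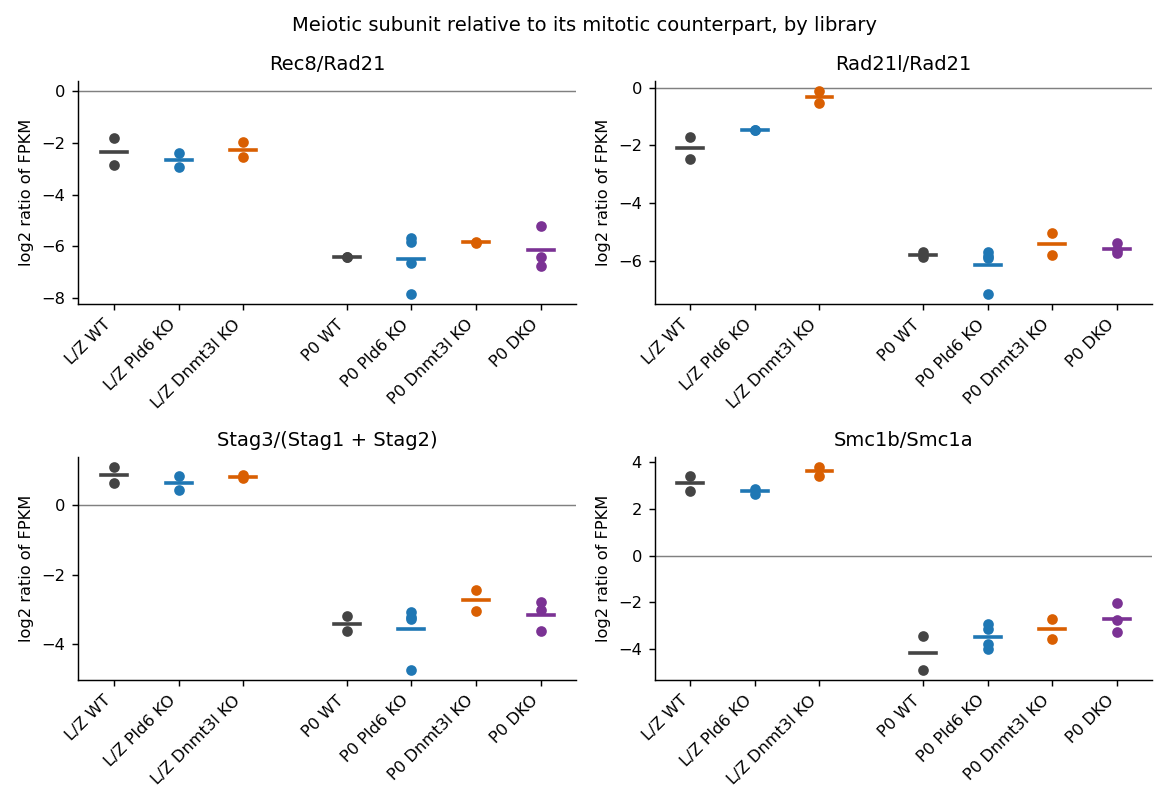
Log2 ratio of FPKM of a meiotic subunit to its mitotic counterpart in each library (points) with group means (bars), for L/Z spermatocytes and P0 testes. Rad21l/Rad21 at L/Z runs from -2.48 and -1.71 in WT to -0.53 and -0.11 in Dnmt3l KO, and at P0 each ratio lies below 0 in every library.

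At P0 each of these ratios was below 1 in every library, with Rec8 at 0.00431 to 0.0265 and Rad21l at 0.00693 to 0.0301 of Rad21, Stag3 at 0.0371 to 0.185 of Stag1 and Stag2 together, and Smc1b at 0.0336 to 0.243 of Smc1a. The 3 DKO libraries had Smc1b/Smc1a ratios of 0.146, 0.103 and 0.243, all above the WT pair of 0.0924 and 0.0336.

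In P0 testes no member was called in any of 6 comparisons by edgeR, DESeq2 or limma. The background was as low, since edgeR called 0.00629% of the 15901 genes tested in Pld6 KO against WT, 0% in Dnmt3l KO and 0.0126% in DKO. It called 0% in DKO against Pld6 KO, 0.0755% in DKO against Dnmt3l KO, and 0% for the difference between the DKO effect and the 2 single effects added together. At an unadjusted p under 0.05 there were 0 members for Pld6 KO, 2 for Dnmt3l KO (Stag3 and Smc1b), 2 for DKO (Smc1b and Sgol1), 1 (Sgol1) for DKO against each single mutant, and 0 for the departure from additivity. Over all 15901 genes tested there were 805 for Pld6 KO, 2056 for Dnmt3l KO and 1268 for DKO. There were 957 for DKO against Pld6 KO, 2836 for DKO against Dnmt3l KO and 1740 for the departure.

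Rec8 stood at 1.67 and 1.63 FPKM for WT, at 0.474, 2.52, 2.73 and 1.21 for the Pld6 KO libraries, at 2.05 and 2.39 for those of Dnmt3l KO and at 3.51, 0.817 and 1.62 for the DKO. Rad21l stood at 2.44 and 2.63 FPKM for WT, at 0.762, 2.31, 3.00 and 2.00 for the Pld6 KO libraries, at 3.60 and 2.40 for those of Dnmt3l KO and at 3.12, 1.82 and 2.60 for the DKO. For both kleisins Pld6 KO replicate 1 was the lowest of the 11 libraries, and apart from Rec8 in Dnmt3l KO each mutant group overlapped WT. Stag3 stood at 7.02 and 5.48 FPKM for WT, at 2.91, 6.58, 7.52 and 8.22 for the Pld6 KO libraries, at 9.55 and 14.3 for those of Dnmt3l KO and at 10.3, 5.68 and 8.81 for the DKO. Pld6 KO replicate 1 was again the lowest, and both Dnmt3l KO libraries were above WT (log2 fold change 0.95 ± 0.39, FDR 0.349, edgeR).

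Smc1b stood at 4.83 and 2.17 FPKM for WT, at 4.04, 5.25, 6.95 and 4.62 for the Pld6 KO libraries, at 10.3 and 4.18 for those of Dnmt3l KO and at 6.59, 4.95 and 13.0 for the DKO. All 3 DKO libraries were above WT. Its log2 fold changes against WT were 0.57 ± 0.44 (Pld6 KO), 1.08 ± 0.50 (Dnmt3l KO) and 1.25 ± 0.47 (DKO), with FDR 0.970, 0.386 and 0.50 (edgeR). Without Dnmt3l KO replicate 1, the library with Ldhc, the Dnmt3l KO value of Smc1b was 0.27 and that of Stag3 1.21. These 3 comparisons share the same WT libraries, which differed from each other by more than a factor of 2. Sgol1 stood at 10.9 and 16.8 FPKM for WT, at 11.9 to 12.7 for the Pld6 KO libraries, at 14.5 and 13.5 for those of Dnmt3l KO and at 9.09, 8.69 and 9.40 for the DKO. The DKO libraries were the 3 lowest of the 11. The log2 fold changes of the DKO were -0.59 ± 0.17 against WT, -0.43 ± 0.15 against Pld6 KO and -0.64 ± 0.17 against Dnmt3l KO, with FDR 0.408, 0.790 and 0.115 (edgeR).

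The mitotic subunits, Smc3 and Sgol2a varied little at P0. Over the 11 libraries Rad21 ran from 89.7 to 157 FPKM, Stag1 from 25.3 to 31.4, Stag2 from 34.1 to 50.1, Smc3 from 40.0 to 63.7 and Sgol2a from 9.79 to 16.1. That is at most a 1.75-fold range, where Rec8 spanned 7.40-fold, Rad21l 4.72-fold, Stag3 4.91-fold and Smc1b 6.01-fold. For Rec8, Rad21l and Stag3 the lowest value was that of 1 library, Pld6 KO replicate 1, which was also high in Prm1 and Tnp1. Without it they ran from 0.817 to 3.51, from 1.82 to 3.60 and from 5.48 to 14.3 FPKM. Sgol1 spanned 1.93-fold over all 11 libraries. Germ cell markers varied over the same libraries, and their part in these values was not tested. The 8 prospermatogonia markers summed to 48.4 FPKM in Pld6 KO replicate 1 and 141 to 188 in the other 3 Pld6 KO libraries, against 108 and 130 in WT, and no marker was at 0 in all libraries. Counts of Dnmt3l itself, which fetal male germ cells express, ran from 6 to 145 over the Pld6 KO libraries. The 10 L/Z spermatocyte markers summed to 103.0 FPKM in Dnmt3l KO replicate 1, where Smc1b was at 10.3 FPKM, and to 41.8 in replicate 2.

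**Figure D4:**
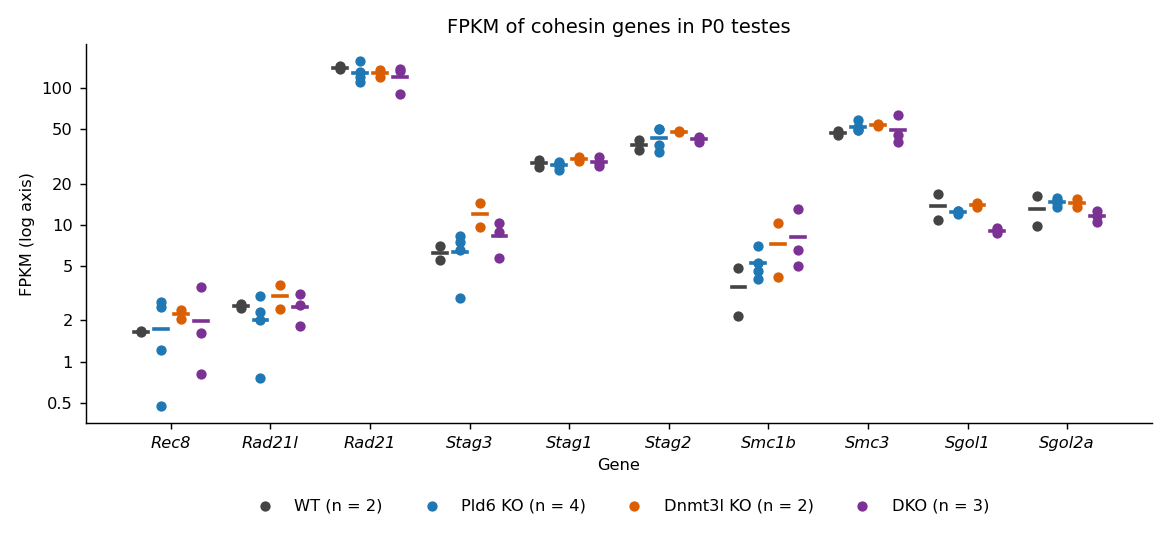
FPKM of the 10 cohesin genes (log axis) in each P0 testis library, with points for libraries and bars for group means. Rec8, Rad21l, Stag3 and Smc1b lie between 0.474 and 14.3 FPKM and spread widely, with Pld6 KO replicate 1 lowest for the first 3, and the DKO points of Sgol1 lie below all others.

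The stages were compared in 1 fit of 14 libraries (WT, Pld6 KO and Dnmt3l KO of both stages), which asks whether the effect of a mutation at L/Z differs from that at P0, with stage confounded with tissue and read type. No member was called for either mutation by edgeR or DESeq2, where edgeR called 0.0121% of genes for Pld6 KO and 0.665% for Dnmt3l KO. Rad21l for Pld6 KO and Stag1 for Dnmt3l KO had an unadjusted p under 0.05, as did 1575 and 2841 of all 16547 genes tested. The effect on Rad21l was higher at L/Z than at P0 by 1.19 ± 0.50 on the log2 scale for Pld6 KO (FDR 0.484, edgeR) and by 1.08 ± 0.54 for Dnmt3l KO (FDR 0.321, edgeR). For Stag1 the difference was 0.73 ± 0.25 for Dnmt3l KO (FDR 0.163, edgeR). The effect of Dnmt3l KO on Smc1b differed by -0.01 ± 0.52, with an interval from -1.03 to 1.02 that holds a 2-fold difference either way. Its sign changed in 9 of 17 alternatives, so no direction is drawn for it.

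The other genes of the cohesin pathway, a list of 26 (Smc1a, loaders, release and acetylation factors, separase and securin, kinases and phosphatase subunits that act with shugoshin, and Ctcf), included 3 called in Dnmt3l KO spermatocytes. All 26 were tested, 3 were called higher and none lower, and the median log2 fold change was -0.0015. Of all 14662 genes tested, 3.89% were called higher and 5.47% in either direction. Nipbl, which loads cohesin onto DNA, had 19.3 and 22.4 FPKM in WT, 34.3 and 34.8 for Pld6 KO and, for Dnmt3l KO, 61.2 and 52.8. The 3 groups did not overlap, and in Dnmt3l KO its log2 level rose by 1.45 ± 0.22 (FDR 0.00781, edgeR). It was the one pathway gene still called with the GC and length offset (1.02 ± 0.23, FDR 0.0458, edgeR). It was also the one called for a difference between the stages (1.45 ± 0.27, FDR 0.0388, edgeR), which was not fitted with that offset. The call against WT held in 15 of 16 alternatives and was lost without Dnmt3l KO replicate 1 (log2 fold change 1.34), while the call between the stages held in 8 of 17.

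Bub1, a kinase that places shugoshin at centromeres, had 74.1 and 107 FPKM in WT and 192 and 214 in Dnmt3l KO with a log2 rise of 1.16 ± 0.26 (FDR 0.0278, edgeR). Ppp2r5e, a regulatory subunit of the phosphatase PP2A, had 15.9 and 25.3 FPKM in WT and 47.1 and 38.2 in Dnmt3l KO and rose by 1.04 ± 0.25 (FDR 0.0339, edgeR). With the offset neither was called, at 0.69 ± 0.23 and 0.75 ± 0.25 (FDR 0.129 and 0.125, edgeR). At the other end of the list stood Pttg1 (securin, the inhibitor of separase), with 87.7 and 80.2 FPKM in WT and 33.4 and 51.0 in Dnmt3l KO. Its log2 fold change was -0.90 ± 0.27 (FDR 0.0667, edgeR), and -1.06 ± 0.24 with the offset (FDR 0.0510, edgeR).

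**Figure D5:**
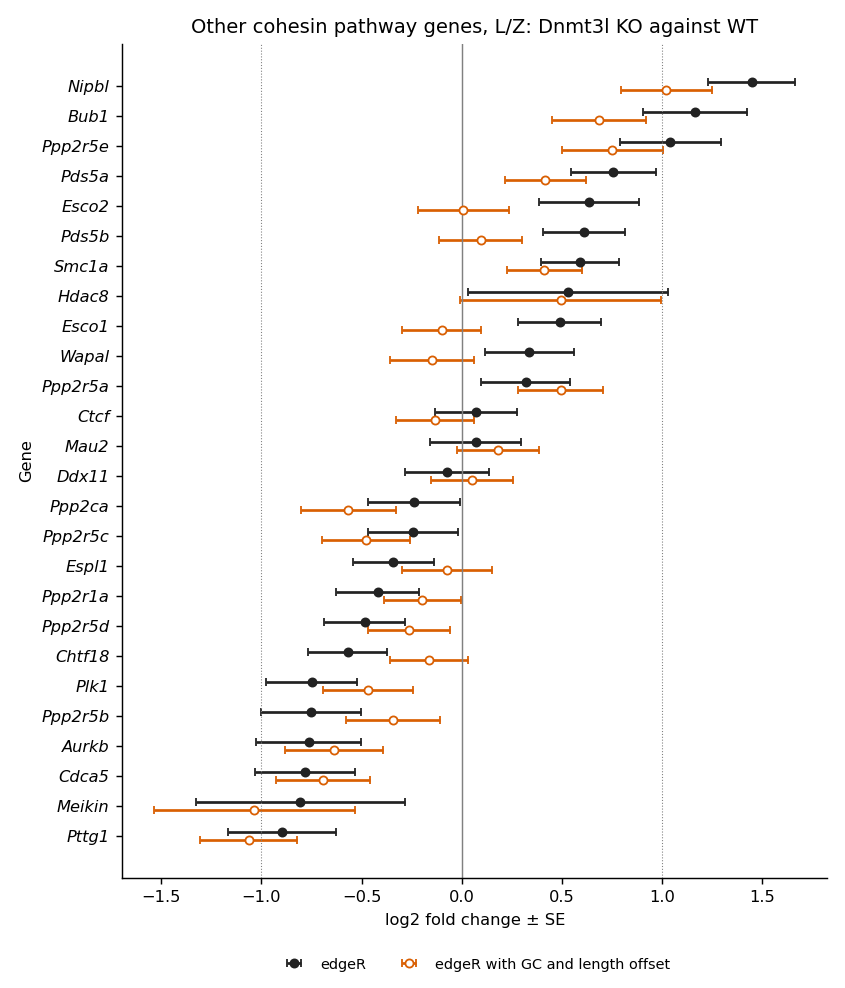
Log2 fold change in Dnmt3l KO against WT L/Z spermatocytes (points, with bars of 1 SE) of the 26 other cohesin pathway genes, from edgeR (filled) and with the GC and length offset (open), with dotted lines at 2-fold. Nipbl, Bub1 and Ppp2r5e lie past the upper line and Pttg1 is lowest at -0.90.

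In Pld6 KO spermatocytes none of the 26 was called by edgeR. An unadjusted p under 0.05 was reached by 1345 of all 14662 genes tested and by 4 of the 26. The largest values were those of Meikin, a meiotic kinetochore protein (-1.06 ± 0.52), Pds5a, a cohesin-binding factor (0.72 ± 0.21), and Nipbl (0.72 ± 0.22), with FDR 0.565, 0.333 and 0.337 (edgeR). At P0, 25 of the 26 were tested and none was called by edgeR in any mutant against WT. The largest log2 fold changes were small, at -0.34 (Ddx11), -0.25 (Pds5a) and 0.25 (Ppp2r5b) in Pld6 KO, -0.58 (Chtf18), 0.48 (Esco1) and 0.48 (Pttg1) in Dnmt3l KO, and -0.37 (Cdca5), 0.37 (Hdac8) and -0.35 (Aurkb) in DKO. The numbers with an unadjusted p under 0.05 there were 0, 1 (Esco1) and 0, against 805, 2056 and 1268 of all 15901 genes tested. The 8 genes of dividing cells (Mki67, Top2a and others) had no call in any of these comparisons, and their summed FPKM was 859 to 1076 at L/Z and 305 to 476.7 at P0.

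As a description of which genes varied alike at P0, each meiotic subunit was correlated with 12539 other genes of at least 50 mean counts over the 11 libraries. For Rec8 the closest were Tspan17 (Pearson r = 0.96), Tdrd5 (0.92), a PIWI-interacting RNA factor of germ cells, and Bend4 (0.91). For Rad21l they were Fkbp6 (0.93), a germ cell protein of the same pathway, Gm7903 (0.92) and Tdrd5 (0.92). Tdrd5 thus stood in the top 3 for both meiotic kleisins. For Stag3 they were Rundc3b (0.92), Heatr1 (0.91) and Lin28b (0.91), and for Smc1b the testis tubulin Tuba3a (0.88), Gtf2a1 (0.87) and Rimklb (0.85). The libraries share tissue, differ in genotype and germ cell marker level, and the genes were picked from 12539, so these values carry no p.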

How the data were processed

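The 17 libraries were made with a stranded poly(A) kit, and read as single 50-bp reads (L/Z) or pairs of 100-bp reads (P0). Per the study's methods and labels, the authors aligned reads to mm10 with TopHat2 and quantified RefSeq genes with Cuffdiff (versions not given in the sources used here). The deposited tables give, per library, an estimated count of fragments (97.8% and 97.7% of values whole) and FPKM, which the authors' Cuffdiff run scaled to transcript length and library. Cuffdiff shares fragments between similar transcripts. Replicates are numbered from 0 in the tables and 1 in the labels, and lower was taken as lower. Genes whose status was not OK (6 in the L/Z table, 2 in that of P0) were dropped.

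Rounded counts went into edgeR 4.0.16 under R 4.3.3 (filterByExpr, TMM, quasi-likelihood F test, all groups of a stage in 1 fit, Benjamini-Hochberg over all genes). SE was taken as the fold change over the root of F. Alternatives used DESeq2 1.42.0 size factors or Wald test, limma 3.58.1 on log2(FPKM + 1) or log2(FPKM + 0.1), other filters (none, or a mean of 50 counts), the compared groups alone, no fold threshold, a replicate block, a factor for Rn45s, a loess offset for GC and length (span 0.3) and leaving out each replicate. The edgeR step was also run on counts simulated from means and dispersions that it estimated from these data. Such counts hold no GC or length effect, so that run cannot speak to the dependence on the offset. All pairs of replicates differed beyond sampling noise (chi-square per degree of freedom at least 15.4). The labels call replicates biological. Likeness used log2(CPM + 0.5). Named genes were all members, pathway genes called or among the 3 largest in a comparison with WT, Pttg1 at L/Z (named after its value was seen) and the 3 closest genes by correlation at P0. The members and lists were chosen with earlier results of these data known. Python 3.11.15, numpy 2.4.6, pandas 2.3.3 and matplotlib 3.10.9 were used.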

Additional observations from a re-analysis of the deposited data

Results flagged for a closer look

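The effect of Dnmt3l KO on Nipbl, the cohesin loader, differed between L/Z spermatocytes and P0 testes by a test of the difference itself, at 1.45 on the log2 scale (edgeR, FDR 0.0388). The log2 fold change was 1.45 at L/Z and -0.04 at P0, where WT libraries had 20.8 and 18.5 FPKM and those of Dnmt3l KO 16.1 and 21.6. The call was kept in 8 of 17 alternatives, with a difference of 1.25 to 1.69 and FDR from 5.22e-05 to 0.194 (edgeR and DESeq2), and the 9 that lost it each left out 1 library. The GC and length offset, which gave 1.02 for Nipbl at L/Z, was not among the alternatives run for the stage difference. Stage cannot be told apart from tissue and read type.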

How the results depend on the processing

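In Dnmt3l KO against WT at L/Z, the 2 members called became 0 with the GC and length offset, and 1 (Rad21l) with a factor for Rn45s-rich libraries, with limma on log2(FPKM + 1) and with limma on log2(FPKM + 0.1). Leaving out 1 library gave 0 to 3 members. The cause was not tested. The counts of members called in the other comparisons stayed at 0 under every alternative run, but with calls this rare that says little about stability. Of 26 pairs of a member and a comparison whose direction was followed through the alternatives, 3 changed sign, each of them in Dnmt3l KO at L/Z. With the GC and length offset Sgol1 went to -0.39 and Sgol2a to -0.22, and when 1 library was left out Sgol1 ran from -0.068 to 0.19 (-0.03 without WT replicate 2) and Rec8 from -0.68 to 0.087. Of the 84 other pairs of a member and a comparison, 47 changed sign in at least 1 alternative, and no direction of a fold change is drawn for these, whether or not their FPKM overlapped. They include the stage difference of Dnmt3l KO for Smc1b, which changed sign in 9 of 17. The number of all genes called also moved: in Dnmt3l KO at L/Z it was 802, against 272 with the GC and length offset, 530 with limma on log2(FPKM + 1), 149 without WT replicate 1 and 1 without Dnmt3l KO replicate 1. DESeq2 called 90 genes in Pld6 KO against WT at L/Z where edgeR called 33, 355 against 7 between the L/Z mutants, 625 against 110 and 42 against 2 for the stage differences of Dnmt3l KO and Pld6 KO, and 6 to 258 against 0 to 12 over the P0 comparisons. The log2 ratios of meiotic to mitotic subunits were also taken from estimated counts in place of FPKM, and with 1 library left out. Each difference between mutant and WT stayed within 1 SD between replicates (the larger of the SDs of both groups) of the value given. Leaving out 1 library cannot move a group mean by more than its SD, so that check says nothing about stability. Counts differ from FPKM mostly by a length factor that all libraries share, so that check says little. Neither check applied the GC and length offset to the ratios. The labels do not say that replicate numbers mark a shared batch, and the libraries were not treated as paired. The correlation of same-numbered deviations was 0.57 between WT and Pld6 KO at L/Z, whose replicate 1 libraries were both rich in Rn45s, -0.11 between WT and Dnmt3l KO, and -0.42 to 0.34 at P0. The replicate block changed no count, with 2 members called in Dnmt3l KO at L/Z and 0 in every other comparison. Rec8, which had the fewest counts of the members at P0, had the largest SE of them there (0.61 in Pld6 KO against WT).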
